A study of Mus musculus with 2 samples.

Results

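The genes described here encode the transcription factor Tal1 and the proteins it works with: its close relative Lyl1, the adaptors Lmo2 and Ldb1, the E proteins Tcf3, Tcf4 and Tcf12, and the Id proteins Id1, Id2 and Id3. They were chosen by name, as every probe set that the platform annotation gave to 1 of these 10 genes, which found all 10 of the 18193 genes with a value and 23 of the 34945 probe sets with a single gene symbol. RNA came from spleen cells of C57BL/6 mice bearing hepatocellular carcinoma, a liver cancer, with no drug or engineered allele named in the labels. The CD45- cells were sorted as positive for Ter119, a surface marker of red cell precursors, and negative for CD45, the common white cell marker. The CD45+ cells of those mice served as the control, with the role of Ter119 in their gate, the age of the mice and any pooling of animals not given in the sources used here. Each group had 1 array, so no difference could be set against replicate error and none was tested.

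Basic helix-loop-helix proteins bind DNA as pairs, at short sites called E-boxes. Tal1 or Lyl1 pairs with an E protein, and Lmo2 and Ldb1 link that pair to Gata1 or Gata2, which makes the complex that switches on red cell genes and also acts in megakaryocytes, blood stem cells and endothelium. E proteins paired with each other drive B and T lymphocyte genes, and Tcf4 is required for plasmacytoid dendritic cells. Id proteins have the helix-loop-helix but no DNA-binding region, so they take E proteins out of action.

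The promoters of the genes whose levels differed most are shown for orientation, since Tal1 is known to control its own gene together with Gata1. From RefSeq's promoter table for GRCm38.p6, 12 windows of 7 members were searched. Each had 300 bases, from 250 before a transcription start to 50 after it. Tcf4 was left out of the search, and no window was matched to Lmo2 or Id1. The 250 bases upstream of the start are printed for Tal1 (chr4:115056176-115056425, plus strand, the more upstream of its 2 starts), Id2 (chr12:25096093-25096342, minus strand) and Id3 (chr4:136143572-136143821, plus strand). Capitals mark an E-box (CANNTG), a GATA site (GATAA, or TTATC on the other strand) or a composite of CTG and GATA with 7 to 9 bases between them, on either strand.
Tal1: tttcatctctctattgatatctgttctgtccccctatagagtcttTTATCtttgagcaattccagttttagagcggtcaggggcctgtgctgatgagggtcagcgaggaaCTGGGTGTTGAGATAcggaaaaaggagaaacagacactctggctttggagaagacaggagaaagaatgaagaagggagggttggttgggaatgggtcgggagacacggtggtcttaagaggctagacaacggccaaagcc
Id2: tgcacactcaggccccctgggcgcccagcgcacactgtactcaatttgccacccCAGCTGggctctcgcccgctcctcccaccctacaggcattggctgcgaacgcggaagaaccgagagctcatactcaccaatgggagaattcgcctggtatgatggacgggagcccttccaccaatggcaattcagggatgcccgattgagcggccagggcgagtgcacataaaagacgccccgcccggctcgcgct
Id3: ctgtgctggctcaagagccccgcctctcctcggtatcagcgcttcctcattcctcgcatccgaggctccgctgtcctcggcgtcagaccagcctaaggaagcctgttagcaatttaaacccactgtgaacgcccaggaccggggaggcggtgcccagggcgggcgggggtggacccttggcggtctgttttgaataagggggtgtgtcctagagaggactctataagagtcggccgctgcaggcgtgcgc
The Tal1 window held a GATA site at position -205 from the start, a composite at -140 and, beyond the printed stretch, an E-box at position 11. Its other window held none of these motifs. The Id2 window held 1 E-box, at -196, and the Id3 window none of the motifs. Of the 12 windows, 8 held an E-box and 2 a GATA site (of Tal1 and Ldb1), while an E-box was held by 72.3% of all 32851 windows, a GATA site by 25.4% and a composite by 7.18%. A match describes letters in a window and is no evidence that a factor binds there.

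Intensities are the deposited values, on a linear scale, and differences are log2 intensity in the CD45- array minus that in the CD45+ array. Where a gene had several probe sets, the brightest by mean log2 intensity over the arrays stood for it. A value counted as measured above a floor of 127.2 in the CD45- array and 101.1 in the CD45+ array, set from 80 probe sets of olfactory and vomeronasal receptors, which were taken as silent in spleen. Values at or under a floor were set to it, and such differences are written "at least". The median difference of the 11205 genes measured in at least 1 array was -0.28, and 0.00 after quantile normalization. Different probe sets of a gene had a pooled SD of the difference of 0.83, which is not replicate error. Ptprc, which encodes CD45, had 422.7 in the CD45- array against 32146.9 in the CD45+ array, as the sort required, and its second probe set had a difference of at most -1.47.

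The 10 members did not differ in one direction, and each role held members of unlike behaviour. Tal1 and Lmo2 were higher in the CD45- cells, Id2, Id3 and Tcf4 were lower, and Lyl1, Ldb1, Tcf3, Tcf12 and Id1 differed by less than 4-fold (2 on the log2 scale), the size counted as a difference here. All 10 members were measured in at least 1 array. At least 4-fold higher were 2 of the 10, where 8.75% of all measured genes were, and at least 4-fold lower were 3 of the 10, where 16.3% of all measured genes were. The members had a median difference of -0.64, beside -0.28 for all measured genes. Relative to that median, the differences were 6.35 for Tal1, 2.72 for Lmo2, 0.33 for Lyl1, -2.78 for Tcf4, -3.15 or below for Id3 and -4.24 for Id2. In such bulk samples, fewer cells of a type and less RNA per cell cannot be told apart.

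**Figure D1:**
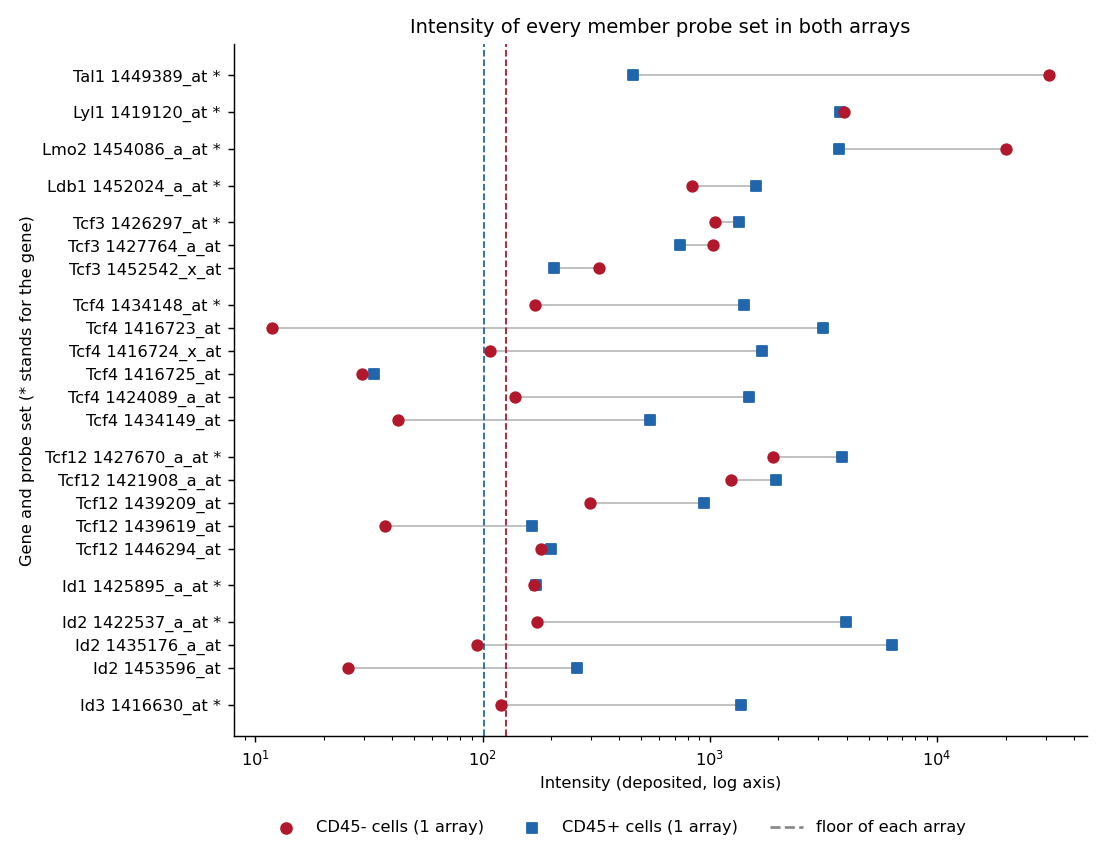
Deposited intensity (log axis) of each of the 23 member probe sets in the CD45- array (red circles) and the CD45+ array (blue squares), 1 array each; dashed lines are the floors of 127.2 and 101.1, and an asterisk marks the probe set that stands for its gene. Tal1 and Lmo2 lie far to the right in the CD45- array, while most probe sets of Tcf4, Id2 and Id3 lie near or under the floor there and well above it in the CD45+ array.

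Among the DNA-binding partners, Tal1 and Lyl1 parted. Tal1, the basic helix-loop-helix factor required to form blood and red cells, had an intensity of 30937.2 in the CD45- array and 461.3 in the CD45+ array. It was 67.1-fold higher in the CD45- cells, a difference of 6.07, and 25 of the 11205 measured genes had a larger one. Lyl1, its nearest relative, which shares much of its role in blood stem cells, had 3885.2 and 3736.1. Its levels were nearly equal, with a difference of 0.06 (-0.21 after quantile normalization). The Tal1 difference exceeded that of Lyl1 by 6.01. Each of these genes rested on a single probe set, as did Lmo2, Ldb1, Id1 and Id3.

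The adaptors also differed from each other. Lmo2, a LIM-only protein that bridges Tal1 and Gata factors, had 20128 in the CD45- array and 3714.7 in the CD45+ array. It was bright in both arrays and 5.42-fold higher in the CD45- cells (2.44). After quantile normalization its difference was 1.97, just under the 4-fold threshold. Ldb1, which holds the complex together and joins distant enhancers to promoters, had 838.7 in the CD45- array and 1600.5 in the CD45+ array. It was the dimmer in the CD45- cells, by 1.91-fold (-0.93), less than the 4-fold size counted here. The Lmo2 and Ldb1 differences were 3.37 apart.

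The E proteins ran from near equality to lower levels in the CD45- cells. Tcf3, which encodes E12 and E47, needed for B cell development, had 1058.5 and 1347.8 by its brightest probe set (-0.35), 1036.8 and 735.8 by the second (0.49), and 325.2 and 206.1 by the third (0.66), each pair giving the CD45- array first. Its probe sets disagreed in sign and all lay within 2-fold of equality, so no direction holds for Tcf3. Averaged over the 3, the difference was 0.27.

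Tcf12, which encodes HEB, an E protein of thymocytes that also pairs with Tal1, was the dimmer in the CD45- array in all 5 of its probe sets. Its brightest probe set had 1900.8 against 3807.6, a difference of -1.0 that lies at the boundary of 2-fold. The other probe sets had 1234.1 against 1952.5, 298.3 against 940.2, 181.6 against 199.4, and 37.3 (under the floor) against 165.4. The probe sets measured in both arrays ran from -1.66 to -0.13, so the size is not settled, and none of those passed 4-fold. The probe set under the floor in the CD45- array was at least 1.3-fold lower, a bound that cannot settle whether it passed 4-fold. All 5 probe sets read the same 1 array per group, so their shared sign is not replication.

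Tcf4, which encodes E2-2, the E protein of plasmacytoid dendritic cells and also active in B cells, was lower in the CD45- cells in all 5 of its measured probe sets. The probe set that stands for it had 169.4 in the CD45- array against 1409.1 in the CD45+ array, 8.32-fold lower (-3.06). A second had 138.8 against 1482.2 (-3.42). Each of these CD45- values lay just above the floor. The other measured probe sets were under the floor in the CD45- array, at 107.5 against 1691.9, 11.9 against 3137.6 and 42.7 against 546.9, which makes them at least 13.3-fold, 24.7-fold and 4.30-fold lower. The remaining probe set, at 29.5 and 33.3, was under the floor in both arrays. The Tcf3 and Tcf4 differences were 2.71 apart, and those of Tcf12 and Tcf4 2.05 apart.

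**Figure D2:**
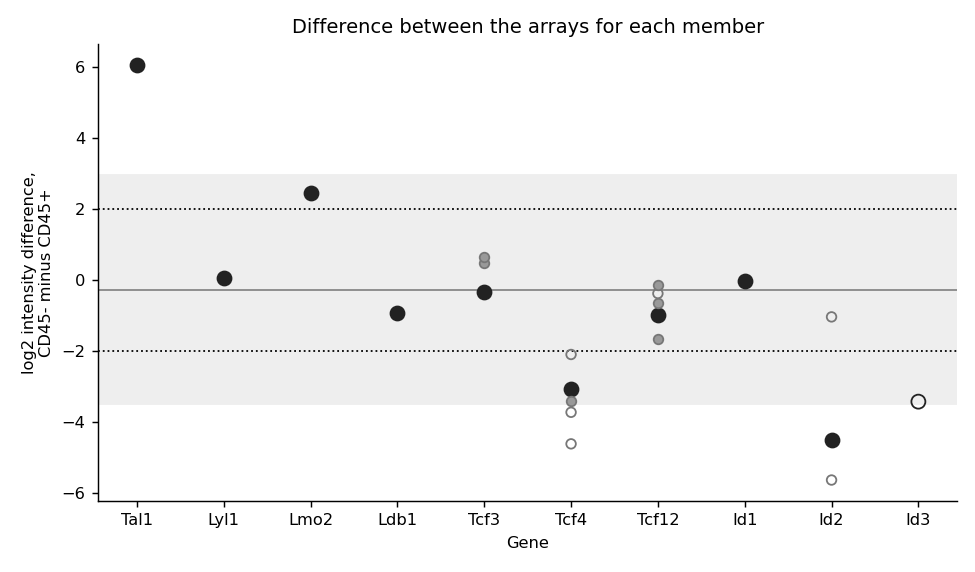
Log2 intensity difference, CD45- minus CD45+ (1 array each), for each member; large symbols are the probe set that stands for the gene, small symbols its other measured probe sets, and open symbols are bounds from probe sets measured in 1 array. The grey band spans the 5th to 95th percentile of all measured genes (-3.51 to 2.95), the grey line is their median of -0.28 and dotted lines mark 4-fold; Tal1 at 6.07 lies above the band, Id2 at -4.52 below it and Tcf3 symbols fall on both sides of 0.

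The Id genes split as well. Id2, an inhibitor that natural killer cells, innate lymphoid cells and several dendritic cells depend on, had 173.1 in the CD45- array against 3973.9 in the CD45+ array. It was 23.0-fold lower (-4.52), and 240 of the 11205 measured genes had a lower difference. Its brightest probe set in the CD45+ array had 94.3, under the floor, against 6344.1, which makes it at least 49.9-fold lower. The third had 25.5 against 261.1, at least 2.05-fold lower, a weak bound because that probe set was dim in both arrays.

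Id3, which restrains E proteins in B and T lymphocytes, had 120.9 in the CD45- array, under the floor, against 1374.3 in the CD45+ array. It was at least 10.8-fold lower in the CD45- cells (-3.43 or below). Id1, an early target of BMP signalling found in stem cells and endothelium, had 169.3 and 172.5. Both values lay close above the floors, so its difference of -0.03 (0.55 after quantile normalization and 0.02 after median centring) shows a low level in both samples and no direction. The Id1 and Id2 differences were 4.49 apart.

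Id3 and Tcf4, an Id gene and an E protein gene, were thus both low in the CD45- array and bright in the CD45+ array, while Tal1 and Lmo2 were above the floor in both. Among genes measured in both arrays, those whose difference lay nearest to that of Tal1 were Slc38a5, an amino acid transporter (12430 against 184.1), Aldh1a1, a retinaldehyde dehydrogenase (17809.8 against 262.9), and Tmcc2 (73885.7 against 1113.3), all within 0.015 of it. Those nearest to Id2 were Elovl5, a fatty acid elongase (129.6 against 2968.2), Glipr1 (163.4 against 3732.4) and Foxo1 (185 against 4268.8), a forkhead factor of lymphocytes, all within 0.0074. Likeness here rests on 1 difference over 2 arrays, which many genes share.

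The other genes of the complex differed from one another in direction and size. Of 20 genes of partners and cofactors, 18 were measured, 4 were at least 4-fold higher in the CD45- cells, 1 was lower and 13 fell between those limits, where 8.75% of all measured genes were higher and 16.3% lower by that size. Their median difference was 0.02. Gfi1b, a repressor of red cell and platelet precursors, had 7404.7 against 150.4 (5.62), Gata1, the red cell GATA factor, 14955.2 against 351.8 (5.41), and its cofactor Zfpm1, or FOG1, 17553 against 1505.9 (3.54). The fourth, Ssbp2, which protects Ldb1 from breakdown, had 5532.1 against 1092.4 (2.34), with other probe sets down to 0.55. Its relative Ssbp3 stood at 2081.5 against 584.6 (1.83), and 3.34 by another probe set. Lmo4, the LIM-only relative of Lmo2, went the other way, at 123.6, under the floor, against 1116.5 (at least 8.78-fold lower). Corepressor genes ran from -1.54 to 0.48. The difference was -0.02 for the demethylase Kdm1a, -0.01 for its partner Rcor1 (up to 1.11 by another probe set), 0.05 and -0.55 for the deacetylases Hdac1 and Hdac2, 0.48 for the scaffold Sin3a and -0.33 for Cbfa2t2, whose probe sets ran from -0.67 to 0.83. Gata2, the GATA factor of earlier precursors, had 287.9 against 126.8 (1.18). Cbfa2t3, or ETO2, the lowest of these corepressors, had 325.3 against 942.9 (-1.54). Tal2 and Ldb2, relatives of Tal1 and Ldb1, were under the floor in both arrays.

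Genes that the Tal1 and Gata1 complex is known to activate in red cells were higher in the CD45- cells. Of 16 with a value, all were measured and 15 passed 4-fold upward, with none passing it downward. Of all measured genes, 8.75% passed it upward and 16.3% downward. The median difference of the 16 was 5.73. The list shares Gata1, Gfi1b, Zfpm1 and Cbfa2t3 with the partners. The largest differences were those of the red cell ankyrin Ank1 (6.98, although its other probe sets went down to 0.00), the Rh antigen Rhd (6.77), protein 4.2 (Epb42, 6.67) and Ermap (6.39). Cbfa2t3 was the one that did not pass, and all 4 of its measured probe sets were dimmer in the CD45- array. The gate took Ter119-positive cells, so the list is not independent evidence of its direction.

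Most E protein target genes measured were lower in the CD45- cells. Of 19 such genes of lymphocyte development, 17 were measured, with a median of -2.93 or below. At least 4-fold lower were 12, and none was higher by that size, where 16.3% of all measured genes were lower and 8.75% higher. The interleukin-7 receptor gene Il7r stood at 165.9 against 8646.5 (-5.70), the B cell receptor chains Cd79a at 463.3 against 22964.9 and Cd79b at 630.2 against 30836.6 (-5.63 and -5.61), and the coactivator Pou2af1 at 263.9 against 12541.4 (-5.57). The 5 that did not pass were Pax5 (-1.67 or below), Rag1 (-0.72 or below), Igll1, Ptcra and Cdkn1a, of which the last 3 were the brighter in the CD45- array. Cdkn1a, which encodes the cell cycle inhibitor p21, had 1197.5 against 301.9, a difference of 1.99 that lies just under 4-fold. Ptcra, the pre-T cell receptor chain, had 136.6, close to the floor, against 13.7, under it (0.43 or above). Igll1, a surrogate light chain gene of B cell precursors, was near the floor in both arrays (184.6 and 171.6, 0.11), and Rag2 and Vpreb1 were under it in both. The gate put lymphocytes among the CD45+ cells, so this list is not independent evidence of its direction either.

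Genes tied to Tcf4 in plasmacytoid dendritic cells were partly lower. All 11 with a value were measured, 6 were at least 4-fold lower and 0 higher. The median of the 11 was -2.06 or below, a bound close to the threshold, and -3.70 with no floor. By that size, 16.3% of all measured genes were lower and 8.75% higher. Ly6d (359.8 against 17665.3), Irf8 (301.7 against 13603.4) and Spib (275.2 against 10476.2), which B cells also express, had differences of -5.62, -5.49 and -5.25, and Tlr7 one of -3.58 or below. Siglech, the most specific of the list, had 22.8 against 530.7 (at least 4.17-fold lower). Irf7, an interferon regulator, was the brighter in the CD45- array, at 9110.2 against 3798.9 (1.26). So was Tlr9, near the floor in both arrays, at 182.9 against 138 (0.41). The gate put white cells among the CD45+ cells, so this list is not independent evidence of its direction.

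Genes of the lineages that depend on Id2 were mostly under the floor in the CD45- array. All 11 with a value were measured, 10 of them in the CD45+ array alone, with a median of -2.08 or below. At least 4-fold lower were 6, and 0 were higher, where 16.3% of all measured genes were lower and 8.75% higher. Il2rb, a cytokine receptor chain of natural killer and T cells, had a difference of -3.59 or below, and the transcription factors Tbx21, Tox and Eomes had differences of -2.49, -2.39 and -2.26 or below. Zbtb46, a factor of classical dendritic cells, was the 1 measured in the CD45- array, at 345 against 120.8 (1.51). The gate put white cells among the CD45+ cells, so this list too is not independent evidence of its direction.

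Id genes answer to BMP signals through Smad proteins and, for Id3, to Egr factors. A list of 12 genes held these inducers together with Id4 and the inhibitory Smad6 and Smad7. Of the 12, 9 were measured, with a median of -2.65 or below. At least 4-fold lower in the CD45- cells were 5, and 0 were higher, where 16.3% of all measured genes were lower and 8.75% higher. Smad4, the shared partner of the other Smads, had 249.7 against 7219.9 (-4.85), and its measured probe sets ran from -4.85 to -3.83. Egr1, an immediate early factor, had 277.1 against 7607 (-4.78), and Egr3 had 42.3, under the floor, against 2635.8 (-4.37 or below). The inhibitory Smad7 (39.4 against 826.1) and the BMP mediator Smad1 (69.6 against 798.7) were at least 6.49-fold and 6.28-fold lower. Other measured probe sets of Smad7 and Smad1 went up to -1.27 and -0.42. The BMP receptor gene Bmpr2 was near equal (261 against 218.4), and Id4 and Smad6 were under the floor in both arrays. Bmpr1a was the brighter in the CD45- array (0.34 or above), and Smad5 had a difference of -0.79 or below. Whether these genes set the levels of the Id genes was not tested.

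**Figure D3:**
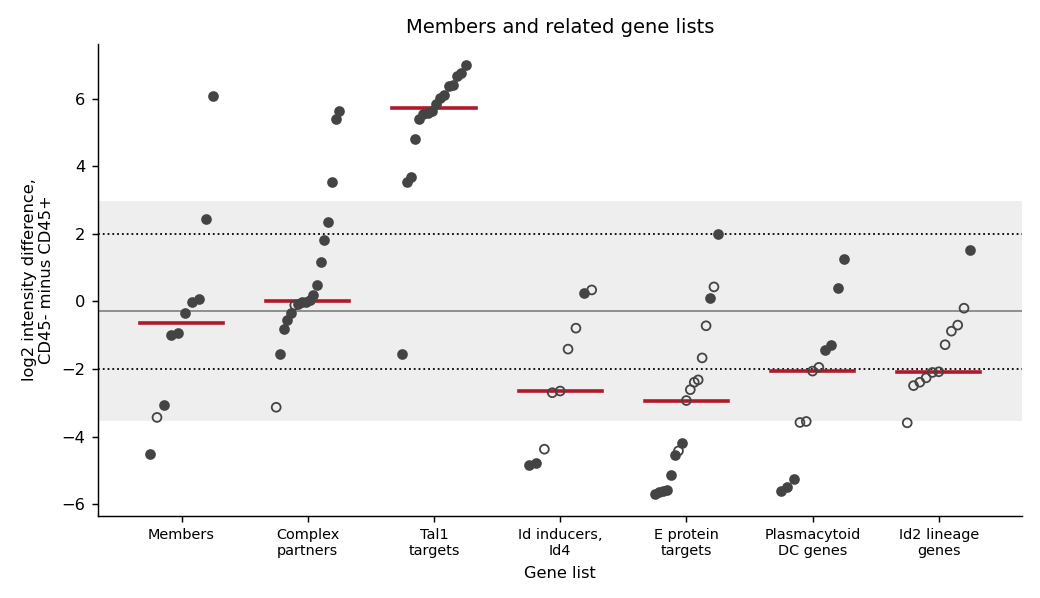
Log2 intensity difference, CD45- minus CD45+ (1 array each), of the 10 members and of the measured genes in 6 related lists; each symbol is a gene, open symbols are bounds from genes measured in 1 array and red bars are medians. The grey band, grey line and dotted lines are the 5th to 95th percentile of all measured genes, their median and 4-fold. The Tal1 target list has its median at 5.73 and the E protein target list at -2.93 or below, while the members spread from -4.52 to 6.07.

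Markers of cell types that express these factors differed between the arrays along with several members. All 7 red cell markers with a value were at least 4-fold higher in the CD45- array, as were 8.75% of all measured genes. They were led by Ank1 and Ermap, with a summed intensity of 359100 against 11110. Alas2, Slc4a1, Ermap, Epor and Ank1 are also in the Tal1 target list, so the red cell markers largely repeat that list. Megakaryocytes also use Tal1, Lyl1 and Lmo2. All 7 of their markers with a value were at least 4-fold higher, among them Tubb1 (5465 against 145.7) and Ppbp (14737.1 against 451.6), with a sum of 36190 against 1706. The part of megakaryocyte or platelet RNA in the Tal1 and Lmo2 values was not tested. All 7 red cell markers were also above the floor in the CD45+ array. The part of red cell RNA in the CD45+ values of Tal1 and Lmo2 was not tested either. Of 9 endothelial markers, 3 were above the floor in the CD45- array, Esam at 237.8, Flt1 at 137 and Egfl7 at 129.3, with a sum of 807.2 against 1755, and Pecam1 stood at 113.1 against 1350.7. The defining Cdh5, Kdr and Tek were under the CD45- floor, at 13.8, 5.8 and 2.4. No mast cell or basophil marker of 7 and no stem or progenitor marker of 7 was above the CD45- floor, and their sums were 265 against 893.1 and 373.7 against 898.9. The highest of them in the CD45+ array were Flt3 at 351, Kit at 234.9, Cma1 at 212.7 and Mcpt8 at 208.8.

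White cell markers were lower in the CD45- array, as Id2, Id3 and Tcf4 were. All 6 B cell markers with a value were at least 4-fold lower in the CD45- array, as were 16.3% of all measured genes. Their sums were 1891 against 93500, led by Cd22 (-6.14) and Ms4a1 (-5.88). All 6 T cell markers passed 4-fold too (629 against 25530), with Cd3d at 18.4 against 9915.3 and Cd3g at 120.6 against 4198.6, and so were all 6 natural killer markers (547.2 against 21840), with Gzma at 127.4 against 11650.2 and Nkg7 at 104.9 against 3774.9. Of 7 neutrophil markers 5 were at least 4-fold lower (4067 against 129000), led by S100a9 (-5.74) and Camp (-5.46), and of 7 macrophage markers 5 (1907 against 40180), led by Mpeg1 (-5.55) and Lyz2 (-4.44). Cd79a, Cd3e and Cd4 are also in the E protein target list, and Ncr1 and Il2rb in the list of Id2 lineages, so these counts overlap. B cell markers were above the floor in the CD45- array for 5 of 6 genes and neutrophil markers for all 7. The part of residual white cell RNA in the CD45- values of Lyl1, Ldb1, Tcf3, Tcf12 and Id2 was not tested.

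**Figure D4:**
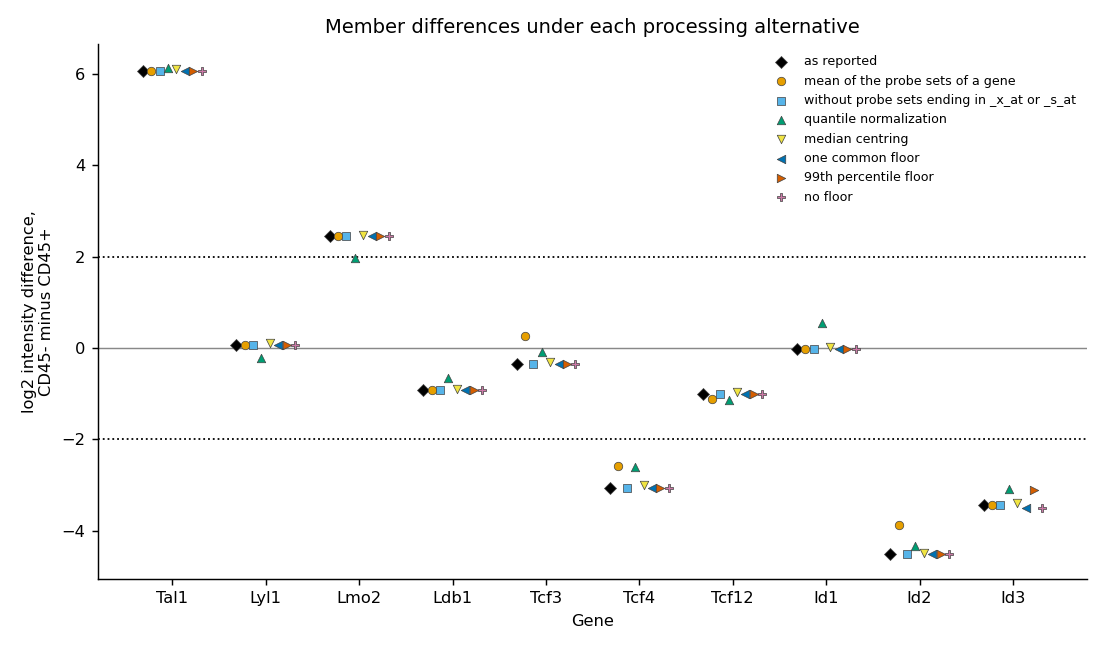
Log2 intensity difference, CD45- minus CD45+ (1 array each), of each member as reported and under 7 processing alternatives, with 4-fold marked by dotted lines. Tal1 stays between 6.07 and 6.12, Id2 between -4.52 and -3.88 and Tcf4 between -3.06 and -2.59; Lmo2 drops to 1.97 with quantile normalization, and Lyl1, Tcf3 and Id1 change sign under at least 1 alternative.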

How the data were processed

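The authors deposited a linear intensity for each of 45037 probe sets on each array, from 0.1 to 104602.6. Per the labels' protocols, the arrays received biotinylated cRNA from a 3' in vitro transcription kit. Per the submitters' processing notes, GCRMA and Partek 6.6 were used, in a role and order that are not stated, so how the arrays were brought to a common scale is not settled. Median intensity was 85.1 (CD45-) and 87.8 (CD45+). Detection calls were not used here, and a probe set could be saturated unseen. Differences below 4-fold, and signals near the floor, are therefore the least secure.

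Probe sets with several symbols (932) or none (9160) were left out. Symbols were checked by Entrez identifier against the RefSeq table of GRCm38.p6, which held 34741 probe sets and changed 0 symbols. Log2 was taken directly, without a pseudocount. The floor was the 95th percentile of receptor signals over both arrays, or of the array itself where that was higher (127.2 in CD45-, 73.5 in CD45+). No test was possible with 1 array per group, whose number limits the precision. Alternatives were the mean of probe sets, no probe sets ending in _x_at or _s_at, quantile normalization, median centring, one common floor, a 99th percentile floor, no floor and a 2-fold threshold.

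The members, lists and rules were chosen with earlier results of these data known. The text names all members, the 4 largest differences of each related list with any member past 4-fold against it, the 2 largest of each marker list, the 3 genes most like Tal1 and Id2, and Ptprc. Other genes were chosen after their values were seen. Some genes of the lists are not reported here. The computations were tested on simulated data and run in Python 3.11.15 with pandas 2.3.3 and numpy 2.4.6, and plots were drawn with matplotlib 3.10.9.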

Additional observations from a re-analysis of the deposited data

How the results depend on the processing

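Of the 10 members, 6 kept their sign, their side of the 4-fold threshold and their value within 0.83 under all 7 alternatives that bear on single genes. These were Tal1, Ldb1, Tcf4, Tcf12, Id2 and Id3. With quantile normalization Lmo2 had 1.97 and the count of members at least 4-fold higher was 1. With no floor, 2885 of all genes passed 4-fold upward and 3293 downward, and with a 2-fold threshold 1976 were higher and 3733 lower. The list of Id inducers, which also held Id4, Smad6 and Smad7, had a median of -1.94 with the mean of probe sets. E protein targets had one of -4.19 with no floor. Plasmacytoid dendritic cell genes had a median of -1.95 without probe sets ending in _x_at or _s_at, -1.45 with quantile normalization, -1.73 with the 99th percentile floor and -3.70 with no floor. Id2 lineage genes had -1.68 with the mean of probe sets, -1.47 with quantile normalization and -1.76 with the 99th percentile floor. The causes were not tested. No paired analysis was possible because each group had 1 array. Genes near the floor, such as Id1 and Id3 in the CD45- array, are limited by signal over background.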
